A study of Homo sapiens with 21 samples.

Results

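Transforming growth factor beta (TGF-beta) signaling was followed here through 9 genes, taken from the table by their names: the ligands TGFB1, TGFB2 and TGFB3, the receptors TGFBR1 and TGFBR2, and SMAD3, SMAD7, SKIL and TGIF1. All 9 were found among the 58735 genes of the expression table. TGF-beta ligands bind the type II receptor TGFBR2, which then phosphorylates the type I receptor TGFBR1. The activated TGFBR1 phosphorylates SMAD2 and SMAD3, which enter the nucleus with SMAD4 and change transcription. In breast epithelium the pathway is known for arrest of growth in normal cells and for invasive behavior in later stages of cancer.

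MDA-MB-453, a human breast cancer cell line with a luminal character, was profiled by RNA-seq in 21 libraries, 3 for each of 7 groups. One group was left untreated as the control. A pair of groups received a metal, calcium at 10 mM or cadmium at 10 μM. GSK4716 at 5 μM served as an agonist, and DES (diethylstilbestrol) at 10 μM as an antagonist, of ESRRB, the nuclear receptor that the study asks about. The last groups combined DES with either metal, and treatment lasted 24 h. In the combined groups DES preceded the metal by 3 h, so the time with DES may have differed from that of DES alone. According to the labels, calcium and GSK4716 were given in medium without serum and cadmium in medium with a little charcoal-stripped serum, while there is 1 control group. The medium of at least 1 treatment therefore differed from that of the control, and medium and treatment cannot be told apart. Nothing states that replicates were separate cultures, so p-values measure the spread between these libraries, which may be technical.

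Expression is given as FPKM, fragments scaled to gene length and library size, and can be compared between genes because it is per length. Each library held between 14435925 and 28424805 fragments on genes, with a median of 18314738. The 8 luminal markers ERBB2, FOXA1, GATA3, SPDEF, KRT8, KRT18, KRT19 and EPCAM were present in every library, with a lowest value of 50.9 FPKM (EPCAM). The 6 fibroblast markers summed to 9.35 to 32.95 FPKM, nearly all of it COL1A1, while COL1A2, COL3A1, DCN, LUM and PDGFRB stayed at or under 0.127 FPKM. The basal markers KRT5, KRT14 and TP63 summed to at most 1.77 FPKM and the leukocyte marker PTPRC to at most 0.079 FPKM. MT2A, a metallothionein induced by cadmium, was at 1840 to 10180 FPKM in the 6 libraries with cadmium and at 24.05 to 1117 FPKM in the others, in the direction of the labels.

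Genes were tested with limma on log2(FPKM + 0.1), with Benjamini-Hochberg adjustment over the 14686 genes with a mean of at least 0.5 FPKM, and a gene was called at an adjusted p under 0.05. Of the 9 genes, 8 passed this filter; TGFB1 did not, and its values come from the fit without the filter. Fold changes are on the log2(FPKM + 0.1) scale, which understates those of genes with little expression. With 3 libraries against 3, an exact permutation test of a single gene cannot go below p = 0.1. The share of all genes whose groups do not overlap was not counted. Such separation is therefore given as a description of levels, not as a trait of these genes. Against control, 23.5% of all genes were under an unadjusted limma p of 0.05 with calcium and 43.2% with DES.

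The promoter of TGFB2 is shown because this gene had the widest range of levels among the 9 relative to control. In RefSeq (GRCh38.p14) its transcript begins on the plus strand of chromosome 1, and the 250 bases before that start, chr1:218345086-218345335, also lie within an exon of some transcripts of the antisense gene TGFB2-AS1 (GENCODE 44). Capitals mark a CAGACA letter run (a SMAD box) that runs into a CACGTG run (an E-box), 53 and 49 bases before the start, and a TATAAA run 29 bases before it.
TGFB2: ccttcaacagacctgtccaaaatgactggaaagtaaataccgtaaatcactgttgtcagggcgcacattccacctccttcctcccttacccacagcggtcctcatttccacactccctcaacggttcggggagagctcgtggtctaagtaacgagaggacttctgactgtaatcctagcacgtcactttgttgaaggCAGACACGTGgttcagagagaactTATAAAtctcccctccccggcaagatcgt

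Short stretches around AP-1 letters (TGANTCA) in windows of TGFBR2 and SMAD3 are shown as examples from genes called higher with calcium. TGIF1, also called higher, has such letters in 3 windows that are not shown, and TGFB2 has none in its window. The capitals mark the AP-1 letters, which span the transcript start of TGFBR2 (chr3:30606583-30606612, plus strand) and begin 56 bases before an internal start of SMAD3 (chr15:67125674-67125703, plus strand).
TGFBR2: gttgaagttgagTGAGTCActcgcgcgcac
SMAD3: aactgactcctcTGAGTCAtgcccagggga

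The 9 genes have 30 such RefSeq windows of 250 bases before to 50 after a start. On both strands, TGANTCA was found in 5 of the 30 (16.7%) and in 7.71% of all 35116 windows, CAGACA in 7 (23.3%, against 16.9%), CACGTG in 3 (10.0%, against 7.26%), TATAAA in 4 (13.3%, against 11.5%) and the cAMP response letters TGACGTCA in 1, of SKIL (3.33%, against 1.85%). The SMAD palindrome GTCTAGAC, in 0.202% of all windows, and the estrogen-related receptor element TNAAGGTCA, in 0.951% of all windows, were in 0 of the 30. The shorter AAGGTCA, contained in that element, was in 3 windows (10.0%, against 3.92%), 1 each of TGFBR1, TGIF1 and SMAD7. These are matches of letters, and windows of a gene overlap in part.

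Among the 3 ligands, TGFB2 changed the most, from near the limit of detection in the control to a sizeable share of all ligand transcripts with calcium. TGFB2 (ENSG00000092969, plus strand, chr1:218346235-218444619) encodes the TGF-beta 2 precursor. Control libraries held 0.0901, 0.0276 and 0.0822 FPKM, which rest on 15, 3 and 7 fragments. Calcium libraries held 1.68, 9.605 and 11.45 FPKM, from 193, 865 and 1321 fragments. Every calcium library was above every control library, and replicate 1 was well below replicates 2 and 3.

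Treatment with cadmium gave 0.256, 4.285 and 2.29 FPKM of TGFB2, again all above the control, with replicate 1 lowest. GSK4716 libraries held 0.0878, 0.831 and 0.1955 FPKM, a range that overlapped the control. With DES, TGFB2 was at 0.172, 0.4665 and 0.445 FPKM, low but above each control library. DES with calcium gave 0.574, 1.01 and 0.6175 FPKM, below each library with calcium alone, and DES with cadmium gave 0.205, 0.238 and 0.353 FPKM. The order of the group means was calcium (7.58 FPKM), cadmium (2.28), DES with calcium (0.735), GSK4716 (0.3715), DES (0.361), DES with cadmium (0.265) and control (0.0666). Ranges of neighbours in this order overlapped, except DES with cadmium against control.

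**Figure D1:**
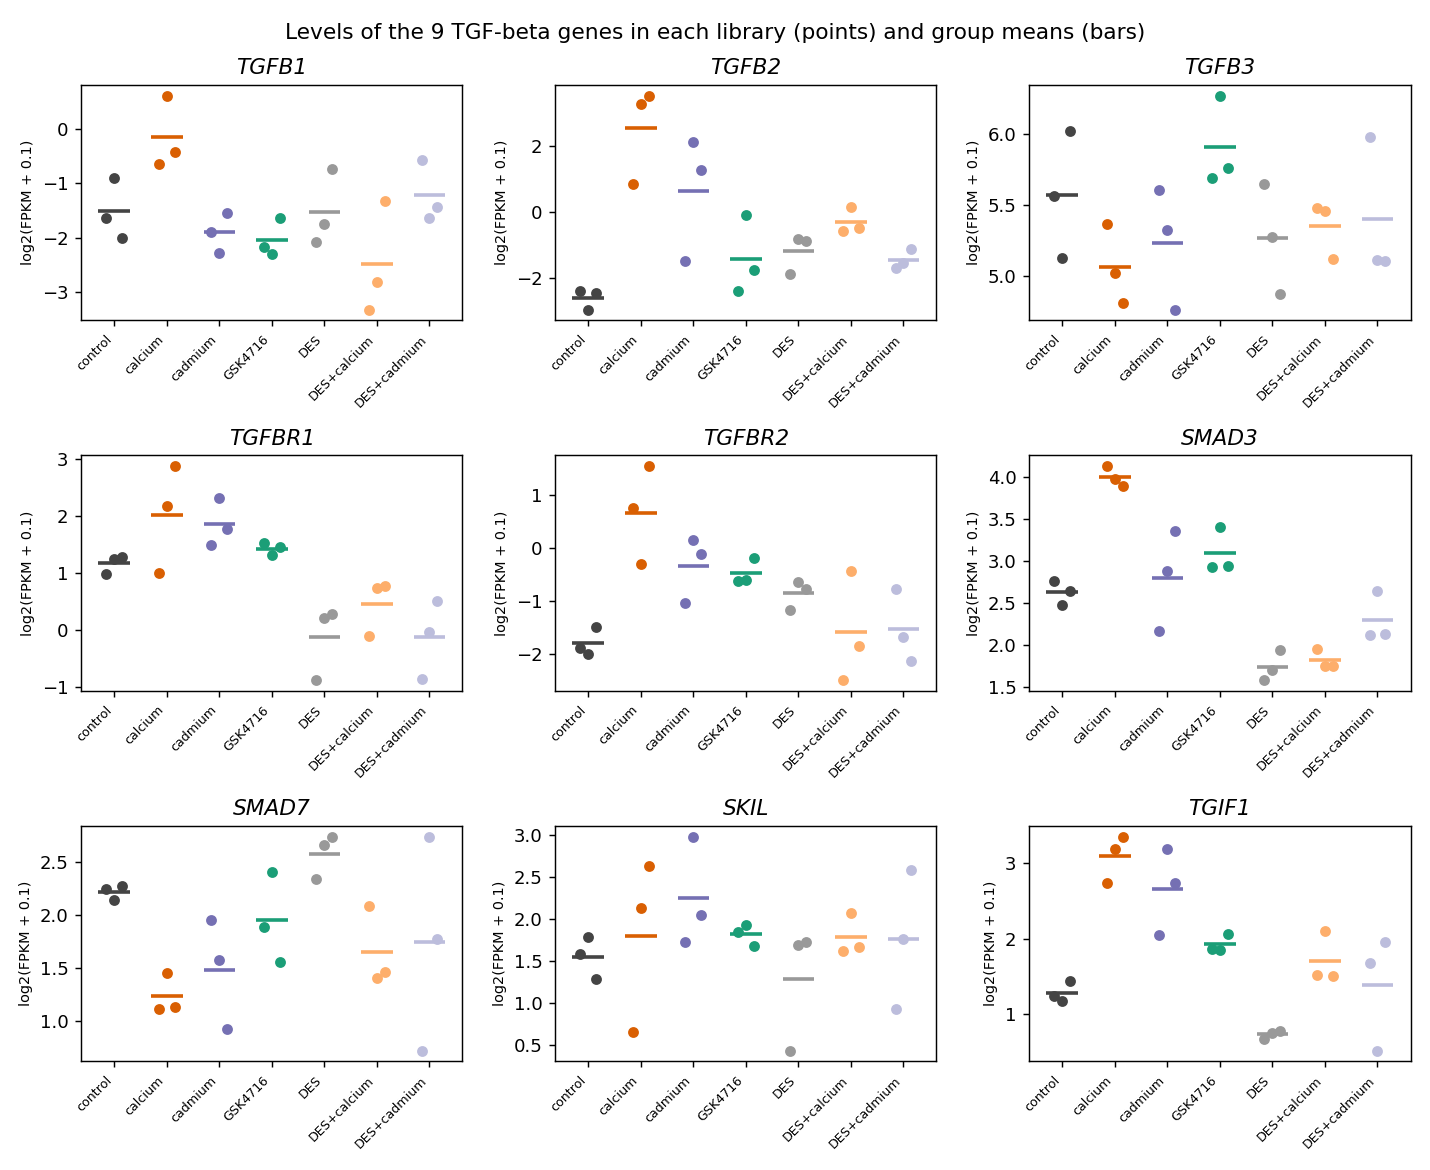
Level of each of the 9 genes as log2(FPKM + 0.1) (vertical axis, a different range in each panel) in the 3 libraries of each of the 7 groups (points, replicates 1 to 3 from left to right, bars at group means). Calcium libraries lie above all control libraries for TGFB1, TGFB2, TGFBR2, SMAD3 and TGIF1 and below them for SMAD7, and TGFB3 overlaps the control in every group. The share of all genes that separate in this way was not counted.

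The increase of TGFB2 with calcium was 5.15 on the log2 scale (SE 0.74, 95% interval 3.35 to 6.95, limma adjusted p = 0.0195, higher in 3 of 3 libraries). On recovered fragments limma-voom gave 6.42 (adjusted p = 0.0289), and adding 1 FPKM instead of 0.1 gave 2.73, so the size depends on the low values of the control. The TGFB2 call was lost without the filter (limma adjusted p = 0.113) and with a replicate block (0.0598). The study placed TGFB2 and TGFBR2 on a list of genes that it found up-regulated by calcium, by cadmium and by GSK4716 in these libraries, which makes their direction in those comparisons no independent evidence. With 1 library left out of 6 in turn, TGFB2 remained called in 3 of 6 fits (adjusted p 0.0109 to 0.088); it was lost without control replicate 1 (adjusted p = 0.0839), control replicate 2 (0.088) or calcium replicate 2 (0.0652). The luminal markers summed to 2522 to 3537 FPKM with calcium and to 1656 to 2202 FPKM in the control. The fibroblast markers, nearly all COL1A1, summed to 14.1 to 17.15 FPKM with calcium and 10.5 to 12.1 FPKM in the control, and the basal markers to 0.318 to 0.644 FPKM and 0.0667 to 0.2015 FPKM. The part of these shifts in the calcium results was not tested. In bulk RNA, more cells with TGFB2 and more TGFB2 per cell cannot be told apart.

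TGFB2 shares 34.2% of its exonic bases in GENCODE 44 with TGFB2-AS1, on the other strand, or TGFB2-OT1, on its own strand. TGFB2-OT1 was at 0 fragments in all libraries. TGFB2-AS1 held 0 to 6 fragments in control libraries (0.111 ± 0.192 FPKM, SD, n = 3) and 19 to 44 with calcium (3.14 ± 1.51). It was at 1.76 ± 1.63 FPKM with cadmium, 0.584 ± 0.318 with DES and 0.426 ± 0.640 with DES and calcium. Like TGFB2 it had its highest mean with calcium and the next with cadmium, but unlike TGFB2 its mean was not higher in DES with calcium than in DES. Whether the libraries kept the strand is described in more than 1 way, and without it reads in the shared bases cannot be assigned to either gene.

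TGFB3 (ENSG00000119699, chr14:75958099-75982991, minus strand) was by far the most abundant ligand and did not pass the test in any comparison. Its levels were 47.1, 34.8 and 64.8 FPKM in the control, 41.2, 32.3 and 27.9 with calcium, and 48.7, 40.0 and 27.0 with cadmium. They were 51.6, 77.2 and 54.2 FPKM with GSK4716 and 50.1, 38.6 and 29.2 with DES. DES with calcium gave 44.5, 43.9 and 34.6 FPKM and DES with cadmium 63.2, 34.5 and 34.4. All groups overlapped the control, and the difference between calcium and control was -0.50 (95% interval -1.14 to 0.13).

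TGFB1 (ENSG00000105329, chr19:41301587-41353911, minus strand), the ligand that dominates in many tissues, was barely detected, with 0 to 81 fragments per library. Control libraries held 0.220, 0.439 and 0.1495 FPKM and calcium libraries 0.540, 1.43 and 0.648, all above the control. The calcium difference of 1.36 (SE 0.50) did not pass the test in the unfiltered fit (adjusted p = 0.491). In DES with calcium the libraries held 0, 3 and 15 fragments (0, 0.0428 and 0.301 FPKM), where a count of 0 allows up to 3 fragments. In the other 4 groups it ranged from 0.104 to 0.576 FPKM. Of its exonic bases 6.59% lie opposite HNRNPUL1, a gene at 24.8 to 55.9 FPKM, so some of these fragments may belong to either gene.

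The summed FPKM of the 3 ligand genes stayed between 29.57 and 78.1 in every library, while its make-up shifted. TGFB2 was 0.19, 0.078 and 0.1265% of the sum in the control and 3.87, 22.15 and 28.6% with calcium. With cadmium it was 0.522, 9.66 and 7.75%, and with DES and calcium 1.27, 2.26 and 1.74%. TGFB3 accounted for 98.7 to 99.6% in the control and 69.8 to 94.9% with calcium. These shares were computed after the levels were seen and carry no test.

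**Figure D2:**
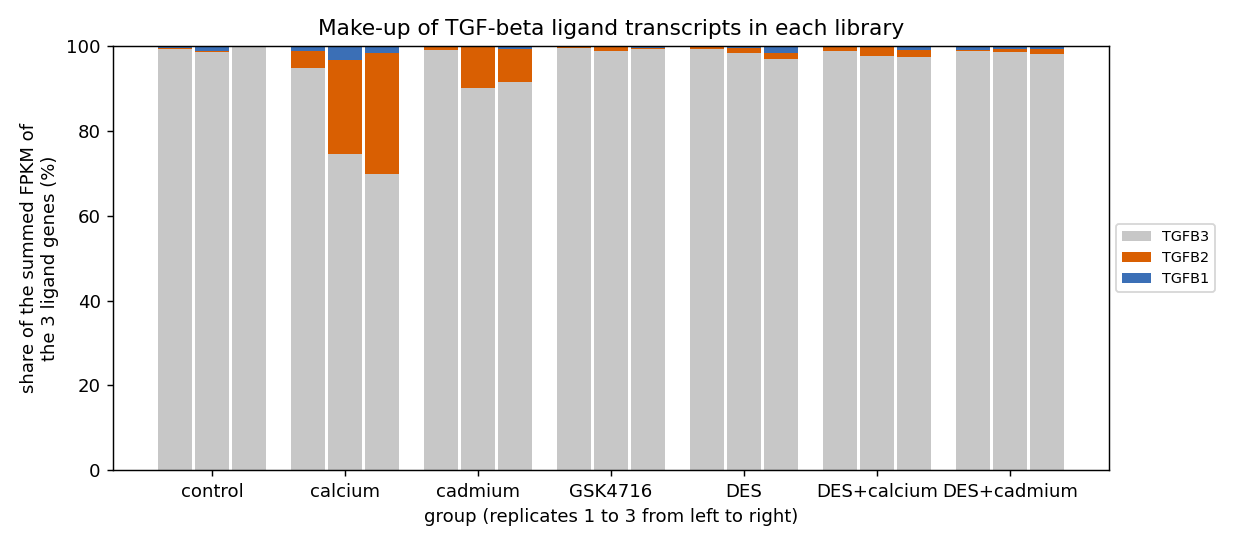
Share of TGFB1, TGFB2 and TGFB3 in their summed FPKM (vertical axis, percent) for each of the 21 libraries (bars, grouped by treatment). The TGFB2 share reaches 28.6% with calcium and 9.66% with cadmium, and stays at or under 2.26% in the other 5 groups.

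The receptors were called in different comparisons, and a difference between them was not tested. TGFBR2 rose with calcium, whereas TGFBR1 was lower in the DES groups. For both, the highest group means were those of calcium, cadmium and GSK4716, in that order. TGFBR2 (ENSG00000163513, chr3:30606502-30694142, plus strand) held 0.171, 0.151 and 0.257 FPKM in the control (15 to 26 fragments) and 1.59, 0.717 and 2.82 FPKM with calcium. All calcium libraries were above the control, and the difference was 2.46 (SE 0.50, 95% interval 1.25 to 3.67, limma adjusted p = 0.0423). TGFBR2 passed the filter on low values only through its calcium libraries, with a mean of 0.616 FPKM over all libraries and 0.434 FPKM over the other groups, and without the filter the adjusted p was 0.189. This call held in 1 of the 6 fits with a library left out, the one without calcium replicate 2 (adjusted p range 0.0381 to 0.158). With a pseudocount of 1 the difference was 1.11 (adjusted p = 0.0674, with 0.0148 to 0.189 over all settings other than a library left out).

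In the remaining groups TGFBR2 stayed under the highest calcium value, but cadmium and GSK4716 libraries overlapped the calcium range, which began at 0.717 FPKM. Cadmium libraries held 0.386, 1.01 and 0.828 FPKM and GSK4716 libraries 0.553, 0.563 and 0.776, in both cases all above the control. The difference from control was 1.46 (SE 0.40, adjusted p = 0.106) with cadmium and 1.32 (SE 0.25, adjusted p = 0.145) with GSK4716, and neither passed. DES gave 0.348, 0.545 and 0.488 FPKM, DES with calcium 0.0786, 0.639 and 0.179, and DES with cadmium 0.489, 0.215 and 0.129. Group means were ordered calcium (1.71 FPKM), cadmium (0.742), GSK4716 (0.6305), DES (0.460), DES with calcium (0.299), DES with cadmium (0.2775) and control (0.193). Ranges of neighbours overlapped except for GSK4716 against DES.

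TGFBR1 (ENSG00000106799, chr9:99104038-99154192, plus strand), the kinase that phosphorylates SMAD2 and SMAD3, held 1.88, 2.275 and 2.34 FPKM in the control. With DES it fell to 0.446, 1.06 and 1.11 FPKM, below every control library. The difference was -1.30 (SE 0.36, limma adjusted p = 0.0356), a call that held in 2 of 6 fits with a library left out and was lost without any of the 3 control libraries (adjusted p 0.0907, 0.114 and 0.102) or DES replicate 2 (0.0601). Calcium libraries were spread from 1.91 over 4.44 to 7.22 FPKM and overlapped the control (0.85, SE 0.47, adjusted p = 0.346). Cadmium gave 2.72, 4.88 and 3.325 FPKM (0.69, SE 0.26, adjusted p = 0.165) and GSK4716 2.79, 2.38 and 2.63 FPKM (0.26, SE 0.15, adjusted p = 0.446). DES with calcium gave 0.828, 1.56 and 1.60 FPKM and DES with cadmium 0.454, 0.875 and 1.33 FPKM, so that all 9 libraries with DES were under the lowest control library.

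Downstream of the receptors, SMAD3 was higher and SMAD7 lower with calcium, and the SMAD7 call was the less stable. SMAD3 (ENSG00000166949, chr15:67063763-67195195, plus strand), which carries the signal to the nucleus, held 6.695, 5.45 and 6.17 FPKM in the control and 17.4, 15.6 and 14.8 FPKM with calcium. The calcium libraries were close to each other and far above the control, by 1.37 (SE 0.13, 95% interval 1.05 to 1.69, limma adjusted p = 0.00951). SMAD3 was called in 8 of 8 other settings, and in 4 of 6 fits with a library left out, those without control replicate 1 (adjusted p = 0.056) and replicate 2 (0.0532) being the exceptions.

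With DES, SMAD3 fell to 2.90, 3.17 and 3.74 FPKM, below all control libraries (-0.88, SE 0.18, adjusted p = 0.0129, and 0.0735 without control replicate 1). DES with calcium held 3.79, 3.27 and 3.28 FPKM, hardly different from DES alone. Cadmium libraries were spread over 4.40, 7.27 and 10.1 FPKM and GSK4716 libraries held 7.51, 10.5 and 7.59. DES with cadmium gave 4.25, 6.15 and 4.30 FPKM, above DES alone. The group means ran from calcium (15.9 FPKM) over GSK4716 (8.53), cadmium (7.26), control (6.11), DES with cadmium (4.90) and DES with calcium (3.45) to DES (3.27), and the range of calcium did not overlap that of any other group.

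SMAD7 (ENSG00000101665, chr18:48919853-48952052, minus strand) is an inhibitory SMAD that blocks the activated receptor and is itself induced by TGF-beta. Control libraries held 4.62, 4.31 and 4.74 FPKM and calcium libraries 2.06, 2.64 and 2.085. Each calcium library was below each control library, with a difference of -0.99 (SE 0.17, limma adjusted p = 0.0282). The call was lost when any 1 of the 6 libraries was left out (adjusted p 0.0529 to 0.139), while the difference stayed between -1.10 and -0.93. Cadmium gave 3.76, 2.88 and 1.79 FPKM, also all below the control (-0.74, adjusted p = 0.171). GSK4716 gave 3.59, 5.20 and 2.835 FPKM, DES 4.945, 6.23 and 6.57, DES with calcium 4.14, 2.54 and 2.64, and DES with cadmium 1.54, 6.56 and 3.30 FPKM.

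The ratio of SMAD3 to SMAD7 within a library, also computed after the levels were seen, was 1.34 ± 0.10 (SD, n = 3) in the control and 7.15 ± 1.27 with calcium. It was 3.12 ± 2.30 with cadmium, 2.26 ± 0.363 with GSK4716 and 0.555 ± 0.041 with DES. DES with calcium gave 1.15 ± 0.20 and DES with cadmium 1.66 ± 0.96. Ratios with calcium (5.92 to 8.46) lay above all others, with the cadmium library of replicate 3 next at 5.66.

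SKIL and TGIF1 encode nuclear repressors that restrain SMAD complexes, and they behaved differently. TGIF1 (ENSG00000177426, chr18:3411608-3459978, plus strand) rose with calcium, from 2.265, 2.165 and 2.61 to 6.55, 9.02 and 10.1 FPKM. All calcium libraries exceeded all control libraries, by 1.80 (SE 0.20, 95% interval 1.31 to 2.30, limma adjusted p = 0.0123). The call was lost without control replicate 1 (adjusted p = 0.0666) or replicate 2 (0.0654), and in the fit without the filter on low values (0.0685). Cadmium libraries held 4.04, 9.03 and 6.56 FPKM, all above the control (1.37, SE 0.31, adjusted p = 0.0822), and GSK4716 libraries 3.55, 3.52 and 4.07 (0.64, SE 0.14, adjusted p = 0.165). DES had the lowest group mean, with libraries at 1.495, 1.59 and 1.62 FPKM, all below the control, without passing the test (-0.55, adjusted p = 0.0834). DES with calcium gave 2.78, 4.22 and 2.73 FPKM and DES with cadmium 3.10, 1.33 and 3.79.

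SKIL (ENSG00000136603, chr3:170357678-170396835, plus strand), a homolog of the SKI oncogene, passed in no comparison. It held 2.89, 3.34 and 2.34 FPKM in the control and 1.47, 4.26 and 6.08 with calcium, where replicate 1 was below and the others were above the control. Cadmium libraries ranged from 3.215 to 7.78 FPKM, GSK4716 libraries from 3.095 to 3.70, and DES libraries from 1.25 to 3.20. The difference from control was 0.25 (SE 0.51, adjusted p = 0.825) with calcium and 0.70 (SE 0.35, adjusted p = 0.258) with cadmium. Replicate 1 was the lowest calcium library for TGFB1, TGFB2, TGFBR1, SMAD7, SKIL and TGIF1 and the highest for TGFB3 and SMAD3.

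Counted over the 9 genes, calcium against control called 5, of which 4 rose (TGFB2, TGFBR2, SMAD3, TGIF1) and SMAD7 fell, while 7.12% of all genes tested were called. TGFBR2 entered this test only through its calcium libraries and was not called without the filter, so its call adds no support to the count. The median difference of the 9 genes was 1.36, and that of all genes was -0.01. Leaving out control replicate 1 or 2 left 0 of the 9 called, with 7 and 46 genes called in all, and leaving out any other library left 3. Cadmium against control called 0 of the 9, where 0.15% of all genes were called, 5 were under an unadjusted p of 0.05 (TGFB2, TGFBR1, TGFBR2, SMAD7 and TGIF1, against 25.9% of all genes), and limma-voom also called 0. A fit to all 7 groups called TGFB2 (adjusted p = 0.0241) and TGIF1 (0.0176) with cadmium, in a fit that called 6.99% of all genes. Without cadmium replicate 1, TGFB2 (4.30, adjusted p = 0.0256), TGFBR2 (1.81, 0.0353) and TGIF1 (1.68, 0.0274) were called, along with 10.9% of all genes. Basal markers summed to 0.532 to 1.77 FPKM with cadmium and 0.0667 to 0.2015 FPKM in the control. The part of this shift in the cadmium results was not tested.

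GSK4716 against control called 0 of the 9 and 0% of all genes with limma, with 3 of the 9 (TGFBR2, SMAD3 and TGIF1) and 2404 of all genes (16.4%) under an unadjusted p of 0.05. Limma-voom called 86 genes with GSK4716 and 0 of the 9. DES against control called TGFBR1 and SMAD3, both lower, among 29.6% of all genes. Mitochondrial genes took 3.47 to 4.96% of fragments with DES and 7.70 to 8.19% in the control, with 4.88 to 7.55% for calcium, and the fibroblast markers summed to 12.6 to 32.95 FPKM with DES and 10.5 to 12.1 FPKM in the control. The part of these shifts in the results was not tested. TGFB2 was higher with DES by 1.42 (SE 0.57, adjusted p = 0.101) and TGFBR2 by 0.93 (SE 0.43, adjusted p = 0.140), with all DES libraries above all control libraries, and neither passed. Besides TGFBR1 and SMAD3, limma-voom called TGFB2 higher with DES (2.27, adjusted p = 0.0321) and TGIF1 lower (-0.60, adjusted p = 0.046). It called 32.3% of all genes. These 4 comparisons share the 3 control libraries, so a control library that stands apart moves all of them.

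**Figure D3:**
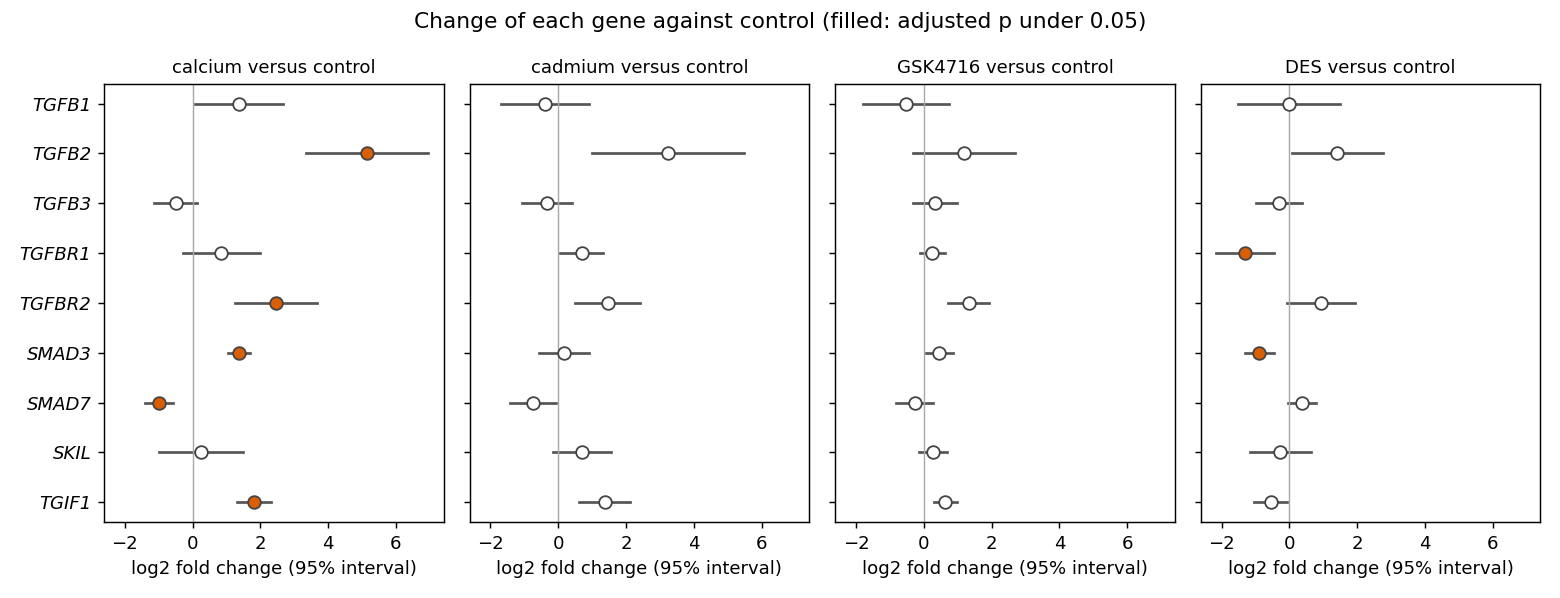
Difference of each gene from control on the log2(FPKM + 0.1) scale (horizontal axis) with its 95% interval for calcium, cadmium, GSK4716 and DES (panels), filled where the adjusted p of limma was under 0.05. Calcium has 5 filled points, DES has 2 (TGFBR1 and SMAD3), and cadmium and GSK4716 have 0.

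The antagonist groups ask whether the response to a metal differs when DES is present. Against DES alone, adding calcium called 0 of the 9 genes (0.136% of all genes), with SMAD7 (-0.93, SE 0.25, adjusted p = 0.249) and TGIF1 (0.97, SE 0.25, adjusted p = 0.237) under an unadjusted p of 0.05. SMAD7 was below, and TGIF1 and TGFB2 above, the DES libraries in all 3 DES with calcium libraries. Adding cadmium to DES called 0 of the 9 (0.266% of all genes), and 0 were under an unadjusted p of 0.05. Limma-voom called 0 of the 9 in both of these comparisons.

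Compared with calcium alone, DES with calcium called 4 of the 9 genes, all lower, where 35.1% of all genes were called. TGFBR2, 1 of these 4, passed the filter only through its calcium libraries, the reference here, so its call adds no support to the count. Basal markers summed to 0.117 to 0.219 FPKM in DES with calcium and 0.318 to 0.644 FPKM with calcium, luminal markers to 1963 to 2852 and 2522 to 3537 FPKM, and mitochondrial genes took 4.34 to 5.17% and 4.88 to 7.55% of fragments. Their part in the result was not tested. SMAD3 was lower by the most stable margin, -2.17 (SE 0.15, limma adjusted p = 0.00167), and was called in 6 of 6 fits with a library left out and in 8 of 8 other settings. TGIF1 was lower by 1.38 in size (log2 fold change -1.38, SE 0.26, adjusted p = 0.00898) and was called in 6 of 6 fits with a library left out. TGFB2 (-2.84, SE 0.72, adjusted p = 0.0240) and TGFBR2 (-2.26, SE 0.70, adjusted p = 0.0452) were called in 1 and 2 of those 6 fits, and without the filter their adjusted p was 0.155 and 0.216. TGFB2 kept its call only without calcium replicate 1, and TGFBR2 only without calcium replicate 2 or DES with calcium replicate 2. TGFBR1 was lower in all 3 libraries but did not pass (-1.56, SE 0.51, adjusted p = 0.0558), although 5 of 8 other settings called it (adjusted p 0.0107 to 0.259), as did 1 of 6 fits with a library left out. For TGFB1 the difference was -2.33 (SE 0.75, adjusted p = 0.200 in the unfiltered fit).

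DES with cadmium against cadmium called TGFBR1 alone (-1.99, SE 0.46, limma adjusted p = 0.0449), where 9.89% of all genes were called. Mitochondrial genes took 1.97 to 5.31% of fragments in DES with cadmium and 7.36 to 9.75% with cadmium, and luminal markers summed to 2033 to 3737 and 1823 to 2025 FPKM, shifts whose part in the result was not tested. TGFBR1 libraries did not overlap between these groups, and its call was lost when any 1 of the 6 libraries was left out (adjusted p 0.0571 to 0.192). TGFB2 was lower by -2.11 (SE 0.93, adjusted p = 0.168) and TGIF1 by -1.27 (SE 0.48, adjusted p = 0.127), and neither passed.

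The interaction, which subtracts the metal effect seen without DES from that seen in its presence, was negative and called for TGFB2 and SMAD3 with calcium, where 3.63% of all genes were called. For TGFB2 calcium made a difference of 5.15 without DES and 0.89 with DES, an interaction of -4.26 (SE 0.90, limma adjusted p = 0.0300). It was called in 4 of 12 fits with a library left out (adjusted p 0.00609 to 0.0821) and not by limma-voom (-5.21, adjusted p = 0.115). With a pseudocount of 1 the TGFB2 interaction was -2.38 (limma adjusted p = 0.0552), so its size depends on the low control values. Without the filter its limma adjusted p was 0.114. For SMAD3 the differences were 1.37 and 0.08, an interaction of -1.29 (SE 0.22, adjusted p = 0.0153), which was called in 12 of 12 fits with a library left out and lost with all 7 groups in one fit (adjusted p = 0.0738). TGFBR2 had an interaction of -3.19 (SE 0.85, adjusted p = 0.0629), called by limma-voom, and TGIF1 of -0.83 (SE 0.31, adjusted p = 0.168). Since TGFBR2 passed the filter only through its calcium libraries, its value adds no support here. For SMAD7 the calcium difference was -0.99 without DES and -0.93 with DES, where it was not called, an interaction of 0.06 (95% interval -0.61 to 0.72).

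For cadmium and DES, 0 of the 9 interactions and 1.18% of all genes were called, and limma-voom called 0 of the 9 as well. TGFB2 (-3.52, SE 1.13, adjusted p = 0.131) and TGFBR2 (-2.12, SE 0.73, adjusted p = 0.155) were under an unadjusted p of 0.05, and TGFB2 was called without cadmium replicate 1 (-4.58, adjusted p = 0.0213). Whether the effects of DES on calcium and on cadmium differ from each other was not tested.

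**Figure D4:**
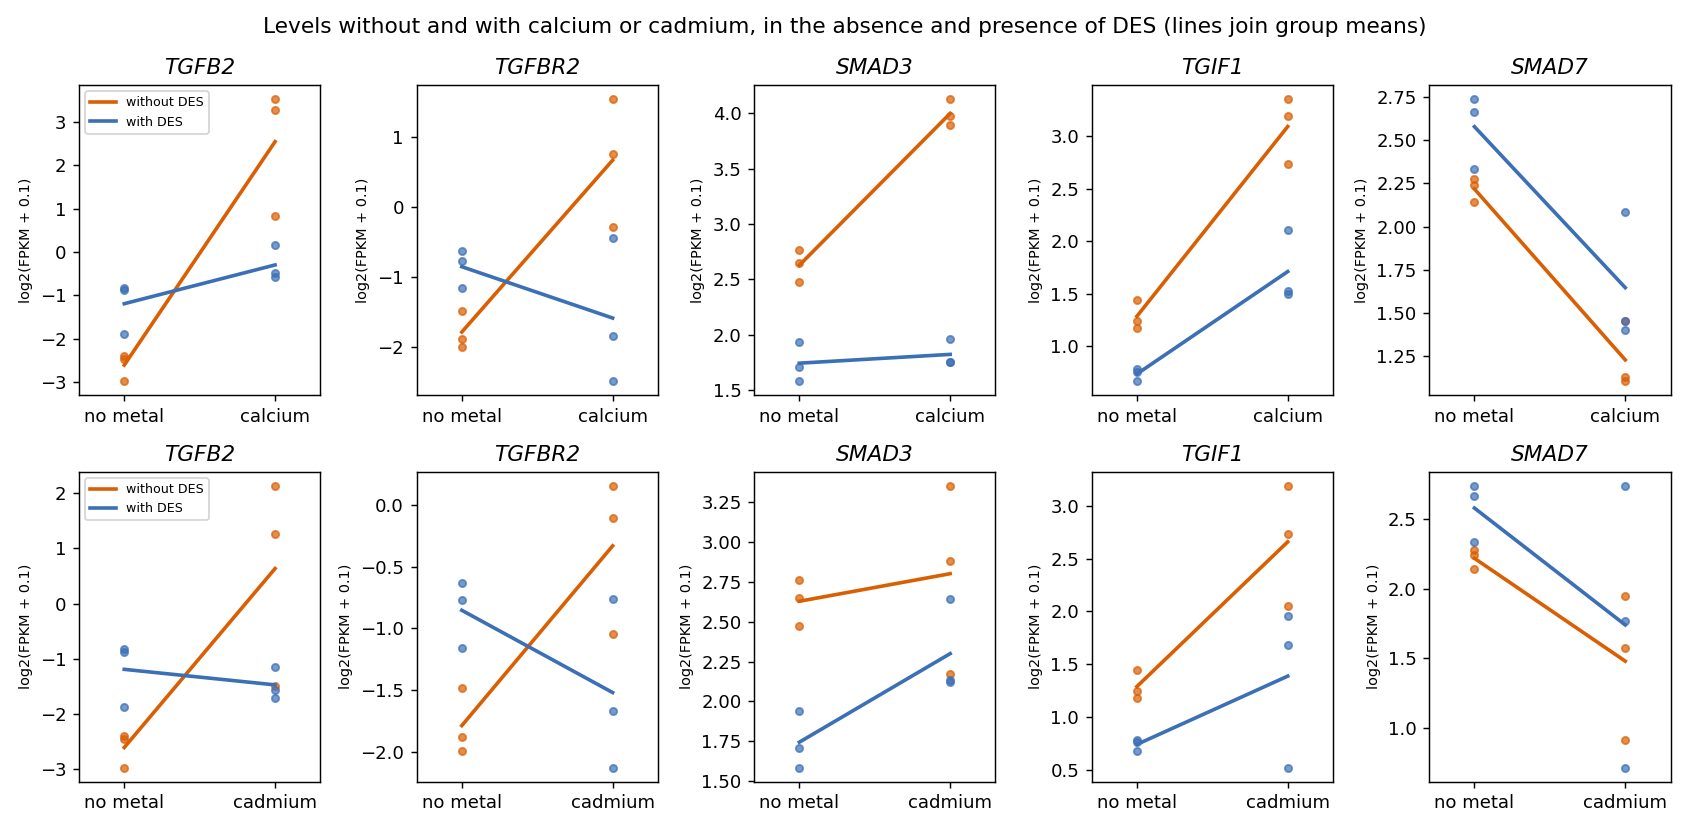
Levels of TGFB2, TGFBR2, SMAD3, TGIF1 and SMAD7 as log2(FPKM + 0.1) without and with calcium (upper row) or cadmium (lower row), in libraries without DES (orange) and with DES (blue); points are libraries and lines join group means. The calcium line of SMAD3 climbs by 1.37 without DES and by 0.08 with DES, and both calcium lines of SMAD7 descend.

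Of 52 other genes of the pathway, 37 passed the filter and were tested. With calcium, 6 were called higher and 1 lower, where 7.12% of all genes were called. Without control replicate 1 or 2, or without the filter, 0 of the 37 were called. The latent binding protein LTBP1, which holds TGF-beta in the matrix, rose by 1.34 (SE 0.28, adjusted p = 0.0457), from 2.91 to 5.24 FPKM in the control to 7.485 to 12.1. PMEPA1, a target gene that restrains the pathway, rose by 0.54 (SE 0.11, adjusted p = 0.0408), from 31.7 to 46.2 FPKM in the mean. SMAD6, the other inhibitory SMAD, fell by 1.20 (SE 0.25, adjusted p = 0.0477). As with SMAD7, all calcium libraries of SMAD6 (2.27 to 2.99 FPKM) were below the control (4.81 to 8.69 FPKM). The calls of LTBP1, PMEPA1 and SMAD6 were lost when any 1 of the 6 libraries was left out.

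Target genes made up 4 of the 6 rises, of 11 tested. CDKN2B, a cyclin-dependent kinase inhibitor, rose by 1.90 (SE 0.38, adjusted p = 0.0419), from 0.648 to 0.954 FPKM in the control to 1.99 to 5.23; the study had also picked it from these libraries. CDKN1A, another such inhibitor, rose by 3.15 (SE 0.35, adjusted p = 0.0120), from a mean of 10.7 to 98.3 FPKM. JUNB, a subunit of AP-1, rose by 1.97 (SE 0.20, adjusted p = 0.00979). CTGF, a matricellular protein, held 0 to 4 fragments per control library and 73 to 333 with calcium, and its fitted rise of 4.55 (SE 0.59, adjusted p = 0.0158) depends on the pseudocount. The call held in 4 of 6 fits with a library left out for CDKN1A and JUNB, in 3 for CTGF and in 1 for CDKN2B. All of these genes also answer to other pathways.

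Cadmium and GSK4716 each called 0 of the 37 genes with limma. In each, 9 of the 37 were under an unadjusted p of 0.05, against 25.9% of all genes with cadmium and 16.4% with GSK4716. For cadmium the count was 5 without cadmium replicate 1 (10.9% of all genes), 4 with all 7 groups in one fit (6.99%) and 2 with limma-voom (3.15%), while GSK4716 stayed at 0 in all settings run. CDKN2B ranged from 1.18 to 6.24 FPKM with cadmium (1.75, adjusted p = 0.141) and from 1.37 to 1.91 with GSK4716 (0.93, adjusted p = 0.177), above each control library. With DES, 7 were higher and 11 lower, where 29.6% of all genes were called. These 18 calls became 8 without control replicate 1 (13.1% of all genes) or replicate 2 (14.5%), 10 without DES replicate 2 (16.6%) and 10 without the filter (4.67%). Of the 11 inhibitors or regulators tested, 6 were lower and 1 was higher. The lower ones included SKI, a corepressor of SMADs (-1.19, SE 0.14, adjusted p = 0.00229), and PMEPA1 (-1.28, SE 0.19, adjusted p = 0.00493). BAMBI, a pseudoreceptor that opposes the pathway, rose by 1.32 (SE 0.20, adjusted p = 0.00495). SMAD6 fell with DES too (-1.30, SE 0.26, adjusted p = 0.0124), as did INHBB, an activin subunit (-0.69, SE 0.19, adjusted p = 0.0321).

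The activin receptors ACVR2A (1.62, SE 0.40, adjusted p = 0.0248) and ACVR1B (0.59, SE 0.15, adjusted p = 0.0236) rose with DES. Among ligand-releasing genes LTBP3 rose (0.62, adjusted p = 0.0207), and LTBP1 (-0.99, adjusted p = 0.0484) and the integrin subunit ITGAV (-0.96, adjusted p = 0.0489) fell. The DES calls of LTBP1 (adjusted p 0.0228 to 0.159), ITGAV (0.0214 to 0.149), ACVR2A (0.00205 to 0.0797) and INHBB (0.0284 to 0.0925) each held in only 1 of 6 fits with a library left out, against 3 of 6 for ACVR1B and 4 of 6 for LTBP3. The transcription factor SNAI1, known for epithelial to mesenchymal transition, rose by 3.53 (SE 0.38, adjusted p = 0.00167), from 5 to 7 fragments per control library to 55 to 115. CTGF rose by 2.91 (SE 0.52, adjusted p = 0.00832), and TAGLN, an actin-binding protein, fell by 0.95 (SE 0.16, adjusted p = 0.00699).

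DES with calcium against calcium called 4 of the 37 higher (ACVR2A, BAMBI, BHLHE40 and ID1) and 12 lower, where 35.1% of all genes were called, with LTBP1 (-2.00, adjusted p = 0.00648), FURIN, the protease that matures the ligands (-0.996, adjusted p = 0.00572), PMEPA1 (-1.24, adjusted p = 0.00911), CDKN2B (-1.87, adjusted p = 0.0134) and CDKN1A (-1.54, adjusted p = 0.0145) among those lower. Without the filter 4 of the 37 were called (5.14% of all genes), and the calls of BHLHE40 and ID1 held in 1 and 2 of 6 fits with a library left out. DES with cadmium against cadmium called 2 higher and 3 lower, where 9.89% of all genes were called, with PMEPA1 lower by the most (-1.89, SE 0.24, adjusted p = 0.0259). Of these 5 calls, 0 were left without any 1 of the 3 cadmium libraries, without DES with cadmium replicate 3 or without the filter, whereas all 7 groups in one fit gave 15 (37.2% of all genes). The PMEPA1 call held in 2 of 6 fits with a library left out (adjusted p 0.0379 to 0.148). Calcium or cadmium added to DES called 0 of the 37 with limma, with 7 and 3 under an unadjusted p of 0.05, against 13.2% and 10.4% of all genes. The calcium and DES interaction called 4 of the 37, all negative and all target genes, where 3.63% of all genes were called, and 0 of the 37 without the filter. Of these, CTGF held in 12 of 12 fits with a library left out, CDKN1A in 5 of 12, and CDKN2B and JUNB in 4 of 12 each. CTGF alone among them also lost its call with a pseudocount of 1, so it depends on the pseudocount. It was called in 4 of 7 other settings. The cadmium and DES interaction called 0, where 1.18% of all genes were called, with 6 under an unadjusted p of 0.05, against 18.5% of all genes. It called 4 with all 7 groups in one fit (5.46% of all genes) and 1 without cadmium replicate 1 (2.11%).

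**Figure D5:**
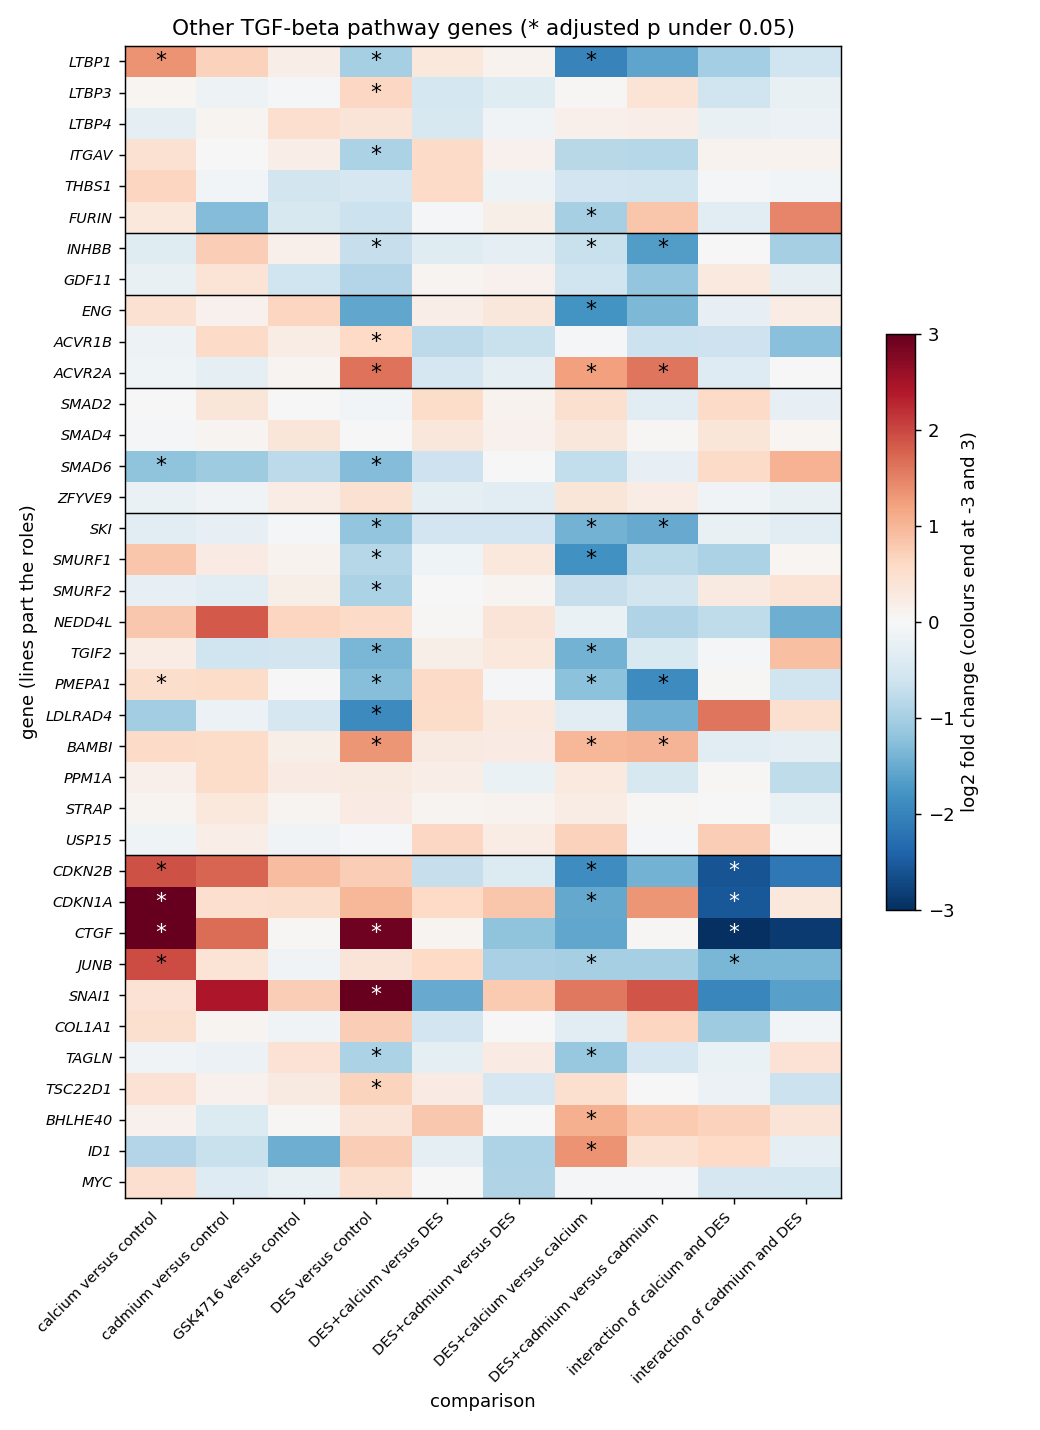
Log2 fold change (color, red higher and blue lower, with colors that end at -3 and 3) of the 37 tested pathway genes (rows, parted by role) in the 10 comparisons (columns), with a star where the adjusted p of limma was under 0.05. The calcium and DES interaction column has stars at CDKN2B, CDKN1A, CTGF and JUNB.

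Across the 21 libraries, genes whose log2 levels were most like TGFB2 included PALLD (Pearson r = 0.941), PDLIM5 (0.898), NR4A3 (0.893) and MAN1A1 (0.888). For TGFBR2 they were GSN (0.849), LRRC6 (0.84), LHFPL2 (0.833), TGFB2-AS1 (0.829) and IL6R (0.817). These correlations describe libraries that fall into 7 treatment groups and carry no p.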

How the data were processed

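The authors deposited FPKM values per gene for 21 libraries (poly-A RNA). The submitters' processing notes name HISAT2 2.0.5, featureCounts 1.5.0-p3 and GRCh38.p14. Dividing the product of FPKM and gene length by the step of each library returned whole fragments (tolerance 0.1) for 100% of values. Library sizes implied by FPKM were 0.693 to 1.15 times those summed over genes, which points to an additional scaling before deposit.

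Tests used limma 3.58.1 in R 4.3.3 (lmFit, eBayes with a trend, two-sided) on log2(FPKM + 0.1), with only the groups compared in a fit, in 8 pairwise comparisons and 2 interactions. The paper's methods name DESeq2 and edgeR; neither was run here, and limma-voom on the recovered fragments was used as the alternative on counts. Simulated data were used to test the steps. Tables used Python 3.11.15. Exon overlap came from GENCODE 44 and promoters from RefSeq.

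The 9 genes, the pathway list and the tests were chosen with earlier results of these data known. All 9 genes are named. From the pathway list PMEPA1 and CDKN2B are always named, and of those called, up to 3 per role and comparison with the lowest adjusted p. BHLHE40, ID1 and JUNB, where outside that rule, were named after their values were seen. A few genes that the rules on named genes, markers or likeness picked are not reported here. Equal replicate numbers were taken to pair libraries where all 3 correlations of deviations from group means were over 0.1. This held only for DES with calcium against DES (0.132, 0.103 and 0.28) and DES with cadmium against DES (0.472, 0.121 and 0.313). DES with calcium against calcium came close (0.102, 0.0582 and 0.159). The pairing was read from the data, since the labels state none. Alternatives changed the pseudocount (1), the filter (none, or a mean of 2 FPKM or more), the scaling (median ratio, total fragments) or the fit (all 7 groups, replicate block, limma-voom on the fragments), or left out each library.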

Additional observations from a re-analysis of the deposited data

Results flagged for a closer look

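The following 6 results were marked because the effect of calcium differed between cells without and with DES in a test of that difference (limma, Benjamini-Hochberg over 14686 genes). The interaction on the log2 scale was -4.26 for TGFB2 (adjusted p = 0.0300) and -1.29 for SMAD3 (adjusted p = 0.0153). Among the target genes it was -2.60 for CDKN2B (adjusted p = 0.0348), -2.55 for CDKN1A (adjusted p = 0.0300), -4.47 for CTGF (adjusted p = 0.0175) and -1.37 for JUNB (adjusted p = 0.0335). With 1 library left out of 12, the call held in 4 fits for TGFB2, 12 for SMAD3, 4 for CDKN2B, 5 for CDKN1A, 12 for CTGF and 4 for JUNB, and all 7 groups in one fit called none of these 6. With a pseudocount of 1, TGFB2 (-2.38, limma adjusted p = 0.0552) and CTGF lost their calls. Without the filter, SMAD3 alone stayed called (limma adjusted p = 0.019). The groups of 3 libraries are too small for a search for single outlying libraries.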

How the results depend on the processing

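The number of the 9 genes called moved by over 1.5 times as follows, with the share of all genes called in parentheses. With calcium against control it was 5 (7.12%), but 1 without the filter (0.133%), 3 when the filter asked for a mean of 2 FPKM (11.5%), where 6 of the 9 were tested, and 2 with a replicate block (1.77%), although the numbers do not pair these libraries. With cadmium it was 0 (0.15%), but 2 with all 7 groups in one fit (6.99%). With DES it was 2 (29.6%), but 4 with limma-voom (32.3%). For DES with calcium against calcium it was 4 (35.1%), but 1 without the filter (5.14%). For DES with cadmium against cadmium it was 1 (9.89%), but 0 without the filter (0.293%), 2 with all 7 groups (37.2%) and 0 with the block (0%). For the calcium and DES interaction it was 2 (3.63%), but 1 with a pseudocount of 1 (4.24%), 1 without the filter (0.461%), 1 with the filter at 2 FPKM (5.19%) and 0 with all 7 groups (1.23%). The unfiltered fit adjusts over more genes; the other causes were not tested.

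With 1 library left out, the count ranged from 0 to 3 for calcium, 0 to 3 for cadmium, 0 to 0 for GSK4716, 0 to 3 for DES, 0 to 0 for either metal added to DES, 2 to 4 for DES with calcium against calcium, 0 to 0 for DES with cadmium against cadmium, 1 to 3 for the calcium interaction and 0 to 1 for the cadmium interaction. No called value of the 9 genes turned its sign in any alternative run. Of 630 single values under other settings, 21 lost and 13 gained a call; of 576 with a library left out, 46 lost and 7 gained one. The same alternatives, chosen for the pathway genes after seeing the data, kept the sign of all their called values, while 69 of 392 lost the call under other settings and 138 of 324 with a library left out. Where the numbers were taken to pair libraries, with DES and a metal against DES, 0 of the 9 were called without the replicate block. No call could therefore be lost, and 0 were called with it. Over all genes tested, the block took 20 calls to 0 for calcium and 39 to 0 for cadmium. Scaling by total fragments moved the median of all genes by up to -0.31 (DES with cadmium against cadmium) and by -0.11 for calcium against control. TGFB1, TGFB2 and TGFBR2 rest on few fragments in control libraries, which limits their fold changes.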
